A study of Mus musculus with 12 samples.

Results

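This account covers the cytochrome P450 enzymes of the CYP2A, CYP2B, CYP2C, CYP2D and CYP2J subfamilies in mouse liver. Members were the rows of the count table whose symbol begins with Cyp2a, Cyp2b, Cyp2c, Cyp2d or Cyp2j and a digit, with pseudogenes (symbols ending in -ps) left out. This gave 40 genes of 56923 rows, of which 4 were Cyp2a, 5 Cyp2b, 15 Cyp2c, 8 Cyp2d and 8 Cyp2j genes. Liver RNA came from 12 wild-type C57BL/6J mice, which were 6 weeks old when the model was set up, in 4 groups of 3. The hepatotoxin carbon tetrachloride (7.5% in olive oil, 200 µL) was injected into the peritoneum of every mouse 2 times a week for 6 weeks. Curcumin was gavaged daily for 2 weeks in the low (25 mg/kg), medium (50 mg/kg) and high (100 mg/kg) groups. The control group is labelled with carbon tetrachloride alone. The injury is therefore common to all groups, uninjured liver was not analysed here, and the labels give neither the sex of the mice nor a vehicle gavage for the control. Mice were kept 3 to a cage, so cage and group may coincide.

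P450 enzymes are haem proteins of the endoplasmic reticulum that insert oxygen into drugs, steroids and fatty acids, taking electrons from P450 oxidoreductase (Por) and cytochrome b5 (Cyb5a). In hepatocytes the nuclear receptors CAR (Nr1i3) and PXR (Nr1i2) induce several Cyp2b and Cyp2c genes, HNF4A maintains many of them, and growth hormone acting through STAT5B sets their differences between the sexes. The mouse subfamilies lie in clusters of duplicated genes, so that neighbours can be nearly identical in sequence.

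Such pairs matter for the counts, because short reads from identical stretches fit more than 1 gene. Cyp2a12 and Cyp2a22 are shown here because their slopes on the mitochondrial share of counts, given below, had opposite signs. Their coding sequences differed at 45 of 1476 bases (96.95% identical), and the longest stretch without a difference was 206 bases. A stretch of 120 bases (coding bases 1302 to 1421, GENCODE M21 annotation of GRCm38) holds 10 of these differences, in capitals.
Cyp2a12: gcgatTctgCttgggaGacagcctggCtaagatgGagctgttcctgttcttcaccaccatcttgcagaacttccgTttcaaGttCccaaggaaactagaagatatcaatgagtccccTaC
Cyp2a22: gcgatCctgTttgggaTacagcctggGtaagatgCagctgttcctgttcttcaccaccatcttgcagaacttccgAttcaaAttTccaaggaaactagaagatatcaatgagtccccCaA
Cyp2a4 and Cyp2a5 were closer still, with 23 differences in 1482 coding bases (98.4% identical). Coding bases 550 to 669 are shown because these are 2 of the most abundant members, again with the 6 differing bases in capitals.
Cyp2a4: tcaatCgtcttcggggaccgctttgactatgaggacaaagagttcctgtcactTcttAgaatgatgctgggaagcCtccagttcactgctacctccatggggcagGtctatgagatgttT
Cyp2a5: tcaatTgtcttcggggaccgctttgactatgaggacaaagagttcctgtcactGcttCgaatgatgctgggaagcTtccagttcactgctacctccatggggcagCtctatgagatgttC
Cyp2b9 and Cyp2b13 differed at 107 of 1473 coding bases (92.7% identical). Across Cyp2c40, Cyp2c67, Cyp2c68 and Cyp2c69, 66 of 1473 aligned coding bases differed in at least 1 gene. The sources used here do not say how reads that fit several of these genes were assigned, so the level of a single member of such a set is uncertain. A subfamily sum is unaffected where reads were only divided among its members, but not where they were discarded, counted in each gene or given to a pseudogene.

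Levels are given as CPM (counts scaled to a common library size), on library sizes scaled by the trimmed mean of M values (TMM), and levels of different genes are ranked per kilobase of merged exon length. Library totals ran from 36015134 to 70376474 counts, and 3 counts corresponded to 0.0426 to 0.0833 CPM of the unscaled total. The 37 mitochondrially encoded genes took between 30.3% (high replicate 1) and 64.7% (high replicate 2) of all counts, so that the widest range lay within the high group. It was 58.6%, 60.9% and 64.2% in control, 63.7%, 64.1% and 43.0% in low, 48.3%, 55.5% and 60.2% in medium, and 30.3%, 64.7% and 42.1% in high replicates 1, 2 and 3. The 11 nuclear copies of these genes took a further 10.9% (high replicate 1) to 23.3% (low replicate 1). Counts left for all other genes therefore varied more than the totals, and were fewest in low replicate 1 and most in high replicate 1. The labelled tissue was checked against 16 hepatocyte markers, all of which were detected, with a summed level of 7141 to 61444 CPM. By comparison, 6 kidney markers summed to 0.188 to 5.87 CPM and 6 intestine markers to 33.5 to 123 CPM. In bulk tissue, fewer cells of a type and less RNA per cell cannot be told apart.

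Of the 40 members, 31 had enough counts to be tested and 9 did not. Cyp2b19, Cyp2b23, Cyp2c65, Cyp2c66, Cyp2j7 and Cyp2j12 had 0 counts in all 12 libraries. By counting error alone this allows at most 0.0426 to 0.0833 CPM of the unscaled total in a library. Cyp2d34, Cyp2j11 and Cyp2j13 had a few counts in some libraries and none above 0.117 CPM on TMM-scaled sizes. That highest level was 3 counts of Cyp2j13 in low replicate 1, so it did not lie above this bound. Per kilobase, the highest mean levels over the 12 libraries were those of Cyp2a4 (148 CPM per kilobase), Cyp2c54 (111), Cyp2d26 (102), Cyp2d10 (97.3) and Cyp2a5 (92.4). Cyp2b9 led the Cyp2b genes (60.1 CPM per kilobase) and Cyp2j5 the Cyp2j genes (11.3), so the Cyp2j subfamily was the least abundant of the 5.

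**Figure D1:**
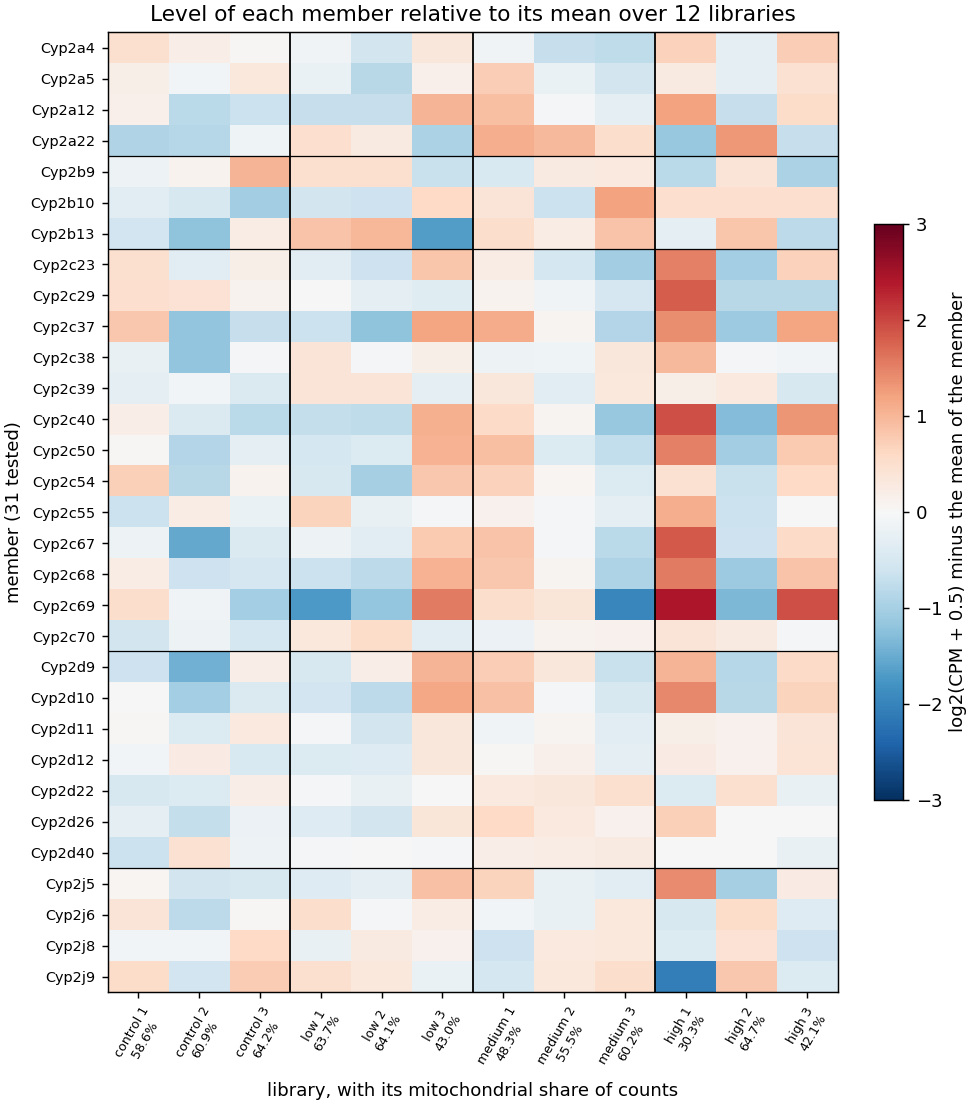
Heat map of the 31 tested members (rows, grouped by subfamily) in the 12 libraries (columns, with the mitochondrial share of each), as log2(CPM + 0.5) minus the mean of the member; red is above and blue below that mean. The columns of low replicate 3, high replicate 1 and high replicate 3, with mitochondrial shares of 43.0%, 30.3% and 42.1%, are red for most Cyp2c genes, while Cyp2a22 and Cyp2j9 are blue in them.

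The members together took 0.0876% to 0.622% of all counts, a 7.11-fold range over the libraries. Of the counts outside mitochondrial genes and their 11 nuclear copies they took 0.659% to 1.09%, a 1.66-fold range. The same was seen in most subfamilies: Cyp2c counts summed to 245 to 2867 CPM of all counts, but to 1881 to 4875 CPM of counts outside mitochondrial genes and copies. Cyp2b ran the other way, with a 1.9-fold range in CPM of all counts and a 4.35-fold range on the other scale.

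Among the subfamily sums, Cyp2d was the one whose medium livers lay above control on each of the scales used. In CPM of counts outside mitochondrial genes and copies, Cyp2d summed to 1581, 1380 and 1828 in control, 1671, 1327 and 2325 in low, 2486, 2354 and 2125 in medium and 2237, 1946 and 1992 in high replicates. On this scale every medium and high liver exceeded every control liver, and the log2 difference from control was 0.12 ± 0.32 in low, 0.55 ± 0.16 in medium and 0.37 ± 0.16 in high (± the pooled SD within the groups compared, n = 3 each). In CPM of all counts the medium and control livers again did not overlap (415 to 884 against 250.6 to 335), but high replicate 2, at 253, lay among the control livers. Sums are given as a description, with no test.

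**Figure D2:**
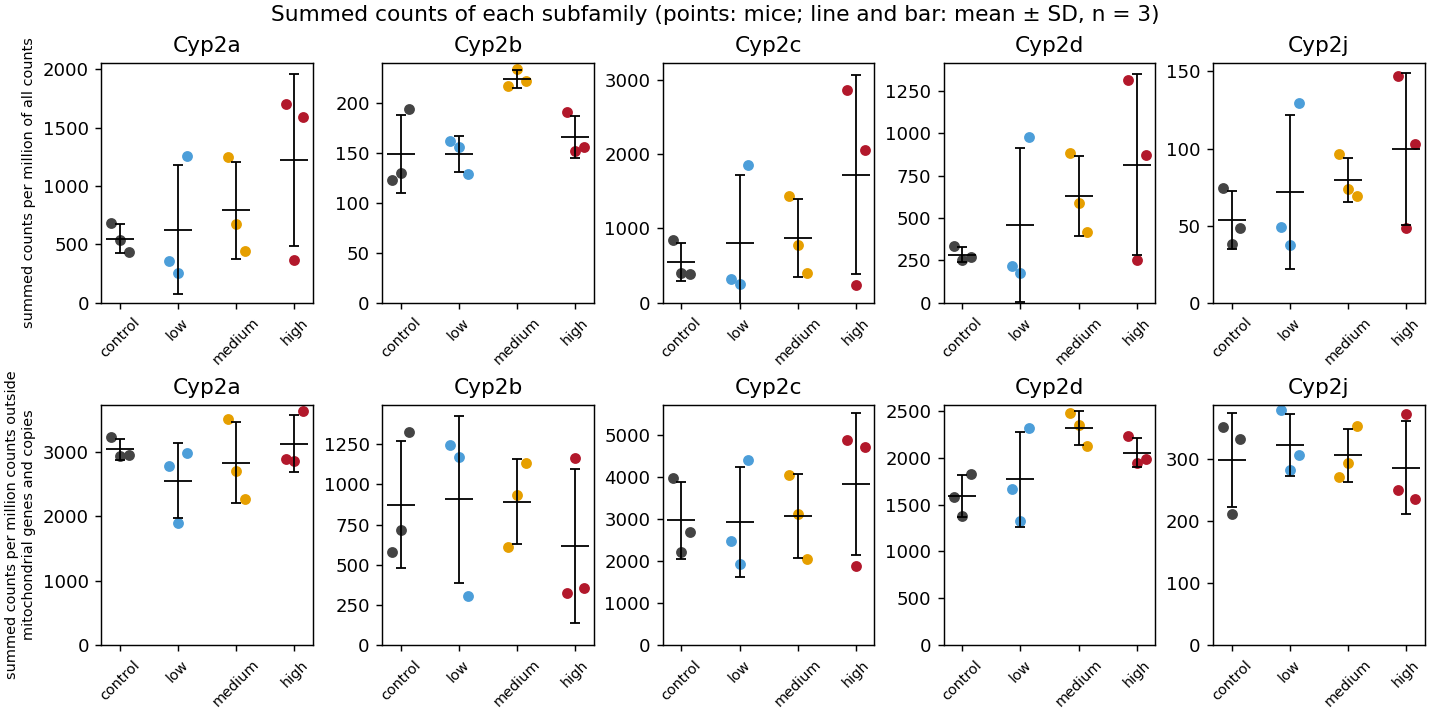
Summed counts of each subfamily by group, in CPM of all counts (upper row) and in CPM of counts outside mitochondrial genes and their nuclear copies (lower row), with 1 point per mouse and the mean ± SD of 3 mice in black; all axes are linear and start at 0. The Cyp2d points of the medium group lie above those of control in both rows, and the wide spread of Cyp2c in the upper row (245 to 2867) narrows in the lower one (1881 to 4875).

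The comparison of each dose with control asks whether curcumin altered these enzymes in the injured liver. No member passed the threshold (adjusted p under 0.05, edgeR's quasi-likelihood test with Benjamini-Hochberg adjustment over 16839 genes) at the low, medium or high dose. Over all genes tested 0 (0%) passed it in each of these comparisons. At an unadjusted p under 0.05, 0 of 31 members were found at the low dose, where 5.99% of all genes were. At the medium dose 2 members were (6.45%, against 5.58% of all genes), and at the high dose 3 (9.68%, against 12.8%). Both shares were near or below those of all genes. DESeq2 called 42, 89 and 172 genes in the low, medium and high comparisons, and limma 0, 35 and 256, but neither called a member. For Cyp2c29 DESeq2 gave no p in these comparisons, so it did not test that member.

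Estimates for the members nevertheless lay mostly above 0. The median log2 change over the 31 tested members was 0.38 in low (21 above 0), 0.42 in medium (23 above 0) and 0.62 in high (27 above 0). Over all genes tested the medians were 0.01, 0.02 and 0.03, and 51.1%, 51.9% and 52.2% of genes lay above 0. Several members are near copies whose reads may be shared. Members above 0, here and in the later comparisons, are therefore not independent cases. The low and medium medians rested on single livers: without low replicate 3 the low median was −0.10, and without medium replicate 1 the medium median was 0.081. The high median ran from 0.41 (without high replicate 1) to 0.77 (without high replicate 3) when each library was left out. With the mitochondrial share as a term in the fit the 3 medians became 0.043, 0.053 and −0.19. Some marker lists also lay mostly to one side of 0, with no gene called. Hepatocyte markers had medians of 0.63, 0.40 and 1.14 in low, medium and high (15, 14 and 15 of 16 above 0). Neutrophil markers had medians of −1.69, −1.56 and −1.46 (0 of 7 above 0 at each dose). For Kupffer cell markers they were −0.90, −0.78 and −0.73 (0, 0 and 3 of 11 above 0). Other lists changed side between doses, such as stellate cell and fibroblast markers (6, 4 and 10 of 11 above 0). Macrophage and monocyte markers did so too (2, 2 and 5 of 8 above 0). The part of these cell types in the members' estimates was not tested.

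**Figure D3:**
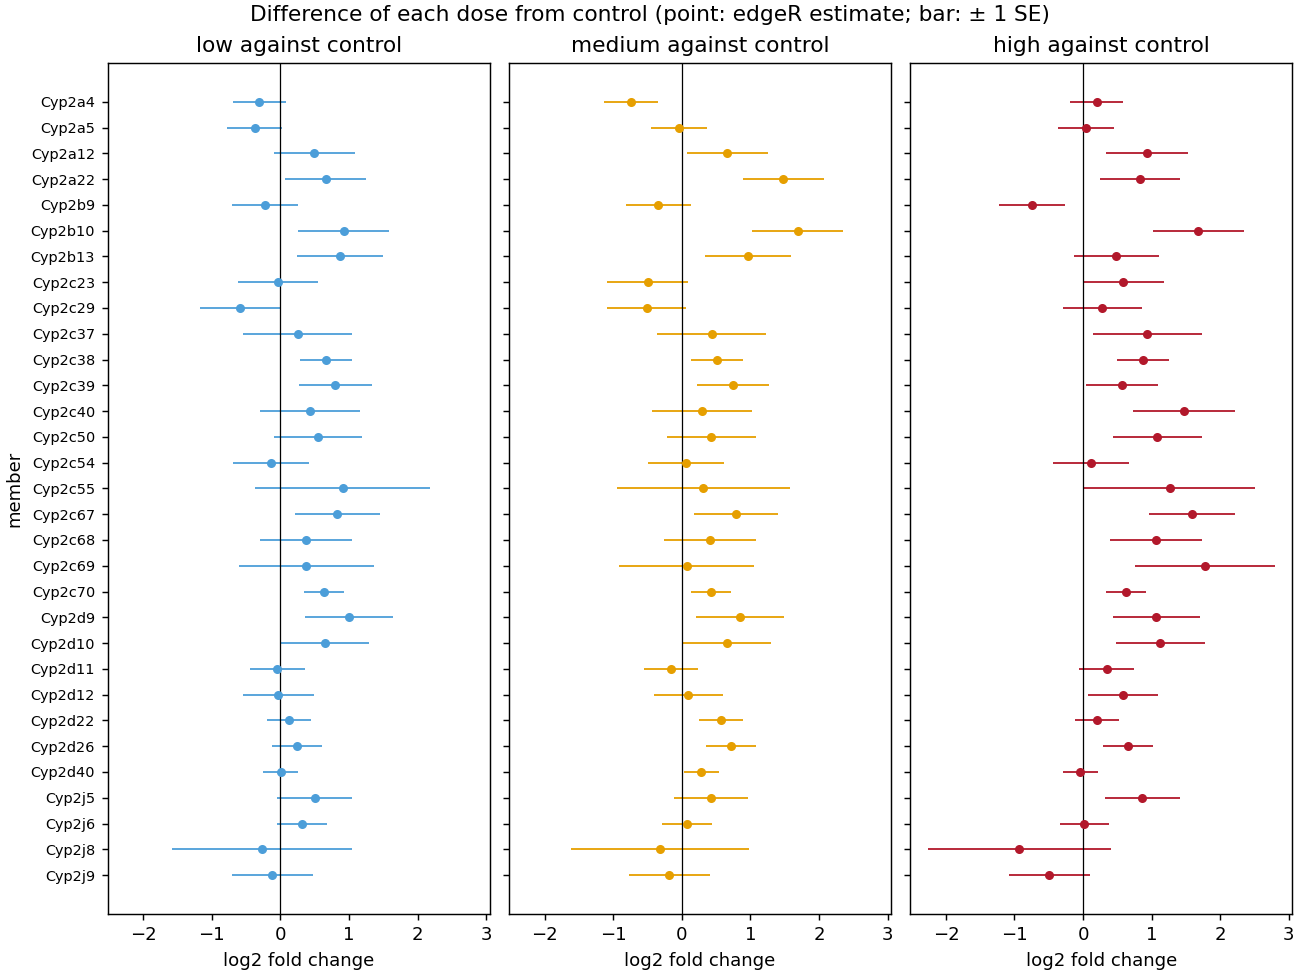
Log2 fold change of each dose against control for the 31 tested members (rows), as the edgeR estimate (point) with 1 SE on each side (bar), 3 mice per group. Most points lie right of 0 (21, 23 and 27 of 31 in low, medium and high), and none differs from 0 at an adjusted p under 0.05.

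In the Cyp2a subfamily, Cyp2a4 and Cyp2a5 hydroxylate steroids and small substrates such as coumarin. Cyp2a4 was measured at 341, 279.6 and 248 CPM in control, 228, 165 and 309 in low, 225, 151 and 144 in medium and 390.4, 203 and 406 in high. The medium livers lay below all control livers and the other doses overlapped control, with a medium log2 change of −0.74 ± 0.39 (SE; adjusted p = 0.968, edgeR). Cyp2a5 was measured at 207, 174 and 229 CPM in control, 159.9, 103 and 206 in low, 308, 159.6 and 126 in medium and 223, 151 and 253 in high. Its groups overlapped at every dose, and its log2 change in medium was −0.04 ± 0.41.

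Cyp2a12, an enzyme that hydroxylates steroids and bile acids, was measured at 160.1, 82.8 and 92.4 CPM in control, 88.9, 88.7 and 293 in low, 271, 139 and 119.6 in medium and 336, 89.3 and 212 in high. Low replicate 3 lay far above the other low livers, and the groups overlapped. Cyp2a22 was measured at 31.3, 32.2 and 54.3 CPM in control, 84.2, 71.1 and 30.5 in low, 127, 116 and 85.7 in medium and 26.5, 147 and 36.1 in high. All 3 medium livers exceeded all control livers, and its log2 change of 1.48 ± 0.59 (SE, n = 3 per group) had an unadjusted p of 0.0277 and an adjusted p of 0.809 (edgeR). Over the 21 alternative settings this change ran from 1.34 to 2.01, with adjusted p from 0.0623 (mitochondrial share as a term) to 1. Within a library Cyp2a22 had between 0.0789 (high replicate 1) and 1.64 (high replicate 2) times the counts of its near copy Cyp2a12, whose merged exons are of similar length (3457 bases, against 3445 for Cyp2a22).

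Cyp2b9 and Cyp2b13 are steroid-metabolising enzymes known for higher levels in female liver. Cyp2b9 was measured at 93.4, 113 and 211 CPM in control, 145, 146 and 65.9 in low, 75.96, 126 and 127 in medium and 59.7, 136 and 53.4 in high. Its groups overlapped, and the estimates lay below 0 at each dose (log2 change −0.22 ± 0.48, −0.34 ± 0.48 and −0.74 ± 0.48 in low, medium and high), none past the threshold. Cyp2b13 was measured at 38.8, 25.1 and 68.1 CPM in control, 106, 117 and 17.7 in low, 83.8, 68.4 and 107 in medium and 47.7, 103 and 33.7 in high. The medium livers exceeded all control livers, with a log2 change of 0.97 ± 0.63 (adjusted p = 0.997, edgeR). The ratio of Cyp2b9 to Cyp2b13 counts, singled out after its values were seen, was 2.41, 4.50 and 3.11 in control. It was 1.38, 1.25 and 3.71 in low, 0.907, 1.84 and 1.19 in medium, and 1.25, 1.32 and 1.58 in high. All curcumin livers but low replicate 3 lay below every control liver in this ratio, which is given with no test.

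Cyp2b10, the gene most used as a readout of CAR activation, was low throughout. It was measured at 0.705, 0.604 and 0.245 CPM in control, 0.546, 0.503 and 1.81 in low, 1.52, 0.474 and 3.04 in medium and 1.66, 1.67 and 1.66 in high. Its raw counts were 28, 40 and 11 in control, 14, 18 and 164 in low, 98, 31 and 195 in medium and 179, 71 and 105 in high. All 3 high livers lay above all control livers and close to each other, and the log2 change was 1.68 ± 0.66 in high (unadjusted p = 0.0255, adjusted p = 0.377, edgeR). In medium it was 1.69 ± 0.66 (adjusted p = 0.799), with medium replicate 2 among the control values. In low it was 0.92 ± 0.66 (adjusted p = 0.861), and 0.0095 without low replicate 3. At the high dose 9.68% of members and 13% of all genes had groups that did not overlap, and the members were Cyp2b10, Cyp2c70 and Cyp2d26, all of them higher.

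The Cyp2c subfamily holds enzymes that epoxidise or hydroxylate arachidonic acid, and Cyp2c70, which makes the muricholic bile acids of rodents. Cyp2c54, the most abundant of them per kilobase, was measured at 296, 101 and 194 CPM in control, 130.3, 90.3 and 316 in low, 292, 188 and 137 in medium and 249.9, 115 and 276 in high. Its groups overlapped at every dose, with log2 changes of −0.14 ± 0.55, 0.06 ± 0.55 and 0.12 ± 0.55. Cyp2c70 was measured at 39.1, 51.8 and 39.5 CPM in control, 72.02, 84.6 and 45.5 in low, 50.7, 61.5 and 62.6 in medium and 75.1, 69.5 and 56.1 in high. It varied less than most members, and its high livers exceeded all control livers (log2 change 0.62 ± 0.29, adjusted p = 0.398, edgeR). In low the change was 0.63 ± 0.29 (adjusted p = 0.822).

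Cyp2c29, which responds to CAR activators, was measured at 21.8, 20.6 and 16.3 CPM in control, 15.02, 12.4 and 11.7 in low, 16.4, 14.1 and 10.6 in medium and 54.5, 8.32 and 8.34 in high. All low livers lay below all control livers (log2 change −0.59 ± 0.58, adjusted p = 0.900), while high replicate 1 stood far above the other 11 livers. The high estimate of 0.28 ± 0.58 became −1.23 without that liver. Cyp2c38 was measured at 4.28, 1.93 and 4.84 CPM in control, 6.79, 4.95 and 5.75 in low, 4.51, 4.59 and 6.59 in medium and 10.4, 4.96 and 4.77 in high. Its low livers exceeded control, and its log2 change was 0.66 ± 0.38 in low and 0.87 ± 0.38 in high (adjusted p = 0.830 and 0.384). In the low comparison Cyp2c29 and Cyp2c38 were the 2 members whose groups did not overlap (6.45%, against 13.8% of all genes).

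Cyp2c67 was measured at 10.6, 3.78 and 8.56 CPM in control, 10.7, 9.39 and 20.7 in low, 21.8, 11.3 and 6.54 in medium and 43.6, 7.54 and 17.9 in high. Its high estimate, a log2 change of 1.59 ± 0.63, had the smallest p among members in that comparison (adjusted p = 0.377), but high replicate 2 lay among the control livers. With the mitochondrial share as a term the estimate was 0.16. Over the range of doses from 0 to 100 mg/kg, the slope of Cyp2c67 was 1.42 ± 0.55, that of Cyp2c40 1.40 ± 0.62 and that of Cyp2c69 1.73 ± 0.83 on the log2 scale (adjusted p = 0.434, 0.436 and 0.455). In the slope on dose 0 of 31 members and 0 of all genes (0%) passed the threshold, with 3 members (9.68%) and 11% of all genes at an unadjusted p under 0.05. The members' median slope was 0.62, with 26 of 31 above 0 (52.4% of all genes were), and 0.37 without high replicate 1. The F test for any difference among the groups called 0 genes (0%) too, with 0 members and 6.06% of all genes at an unadjusted p under 0.05.

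Cyp2d enzymes metabolise many basic drugs in humans, and Cyp2d9 is a testosterone hydroxylase of male mouse liver. Cyp2d26 was measured at 143, 106 and 155 CPM in control, 134, 119 and 226 in low, 265, 213 and 190.2 in medium and 286, 172 and 177 in high. Its medium and high livers all exceeded the control livers, with log2 changes of 0.72 ± 0.36 and 0.65 ± 0.36 (adjusted p = 0.939 and 0.445, edgeR). Cyp2d22 was measured at 71.8, 75.97 and 115 CPM in control, 98.4, 86.5 and 101 in low, 123, 128 and 140.3 in medium and 75.9, 139.9 and 86.1 in high. Its medium livers again exceeded control (log2 change 0.57 ± 0.32, adjusted p = 0.997). In the medium comparison 5 members (16.1%) and 14% of all genes had groups that did not overlap. Cyp2a22, Cyp2b13, Cyp2d22 and Cyp2d26 were higher and Cyp2a4 was lower.

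Cyp2d9 was measured at 1.94, 0.891 and 3.81 CPM in control, 2.22, 3.83 and 7.08 in low, 5.76, 4.25 and 1.88 in medium and 7.12, 1.57 and 5.12 in high. The groups overlapped, and its log2 change was 1.00 ± 0.64 in low, 0.85 ± 0.64 in medium and 1.07 ± 0.64 in high. Per kilobase, Cyp2d9 had a mean level over the 12 libraries of 1.43 CPM. The 5 members known for higher levels in females had means of 148 (Cyp2a4), 60.1 (Cyp2b9), 36.2 (Cyp2b13), 29.7 (Cyp2c40) and 15.4 CPM per kilobase (Cyp2c69). Cyp2d40 was measured at 6.72, 14.9 and 9.72 CPM in control, 10.6, 10.6 and 10.3 in low, 12.4, 12.7 and 13.2 in medium and 10.6, 10.6 and 9.21 in high, with low, medium and high livers close to each other and control livers spread around them.

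Cyp2j5 epoxidises arachidonic acid. It was measured at 24.4, 15.8 and 16.7 CPM in control, 17.8, 19.2 and 43.4 in low, 37.5, 20.03 and 18.95 in medium and 63.8, 11.7 and 28.2 in high. Its groups overlapped, and the high log2 change was 0.87 ± 0.55 (adjusted p = 0.493, edgeR). Cyp2j9 was measured at 24.97, 11.2 and 28.9 CPM in control, 23.9, 21.3 and 14.7 in low, 11.6, 21.04 and 24.8 in medium and 3.66, 30.1 and 12.5 in high, and its high estimate was −0.49 ± 0.59. Cyp2j6 was measured at 31.01, 13.5 and 24.1 CPM in control, 34.6, 22.9 and 27.5 in low, 22.5, 20.1 and 29.7 in medium and 16.8, 34.7 and 18.1 in high, with a slope on dose of −0.09 ± 0.34.

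A comparison of all curcumin livers with control, was added after the data were seen. It called 0 of 16839 genes (0%) and 0 members, with 2 members (6.45%, Cyp2b10 and Cyp2c70) and 9.37% of all genes at an unadjusted p under 0.05. DESeq2 called 165 genes and limma 32, none of them a member, and DESeq2 again gave no p for Cyp2c29. The log2 change of Cyp2c70 was 0.56 ± 0.25 (adjusted p = 0.521, edgeR), and the members' median was 0.56, with 25 of 31 above 0 (50.9% of all genes were). Without low replicate 3 the median was 0.33. No member had groups that did not overlap in this comparison (0 of 31, against 2.26% of all genes).

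Larger differences separated mice of the same group. The slope of each gene on the mitochondrial share, with the 4 groups as terms, asks which genes differed between mice of 1 group along with that share. It called 4753 of 16839 genes (28.2%), with 12.5% rising and 15.7% falling as the share rose. Of the 31 tested members 18 (58.1%) were called, 14 falling (45.2%) and 4 rising (12.9%). The median slope was −0.31 per 10 percentage points on the log2 scale for members and −0.02 for all genes.

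The largest slope was that of Cyp2c69 at −1.35 ± 0.18 per 10 percentage points of share (adjusted p = 0.00028, edgeR). It was measured at 23.7, 15.1 and 7.76 CPM in control, 4.60, 6.99 and 48.8 in low, 23.9, 21.3 and 3.80 in medium and 90.5, 6.06 and 63.3 in high. The livers with the lowest shares (high replicates 1 and 3 and low replicate 3) had the highest levels. Cyp2c40, known for higher levels in females, fell by 1.00 ± 0.10 per 10 points (adjusted p = 5.12e-05). It was measured at 53.7, 34.2 and 26.6 CPM in control, 28.1, 27.3 and 98.9 in low, 70.2, 49.1 and 20.9 in medium and 180.1, 18.5 and 118 in high, so that the 2 extremes of the 12 livers were both high-dose livers.

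Further Cyp2c genes fell with the share as well. Cyp2c68 (slope −0.86 ± 0.10) was measured at 79.8, 44.1 and 47.98 CPM in control, 43.5, 39.3 and 141 in low, 121, 72.7 and 35.8 in medium and 203, 31.8 and 124 in high. Cyp2c50 (slope −0.79 ± 0.11) was measured at 71.5, 37.8 and 57.8 CPM in control, 48.3, 52.4 and 144 in low, 132, 52.6 and 41.4 in medium and 199.7, 33.6 and 120.2 in high. Both had their highest level in high replicate 1. The arachidonate epoxygenase Cyp2c37 (slope −0.95 ± 0.17) was measured at 189, 47.2 and 66.7 CPM in control, 69.3, 46.4 and 245 in low, 236, 115 and 58.8 in medium and 284, 50.4 and 246 in high. Cyp2c23 (slope −0.73 ± 0.09) was measured at 122, 68.8 and 98.2 CPM in control, 69.4, 56.3 and 157 in low, 101, 60.6 and 42.3 in medium and 249.8, 42.6 and 142 in high. Cyp2c67 and Cyp2c54, whose levels are given above, had slopes of −0.70 ± 0.13 and −0.53 ± 0.14. In all, 8 of 13 tested Cyp2c genes fell and 0 rose, where 15.7% of all genes fell and 12.5% rose. Cyp2c40, Cyp2c67, Cyp2c68 and Cyp2c69 are near copies, as are Cyp2c37, Cyp2c50 and Cyp2c54, so the 8 are not independent cases.

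In the other subfamilies, Cyp2d10 (slope −0.77 ± 0.10) was measured at 137, 66.8 and 101 CPM in control, 91.5, 78.3 and 305 in low, 251, 133 and 97.1 in medium and 371, 76.2 and 216 in high. Cyp2a12 fell by 0.68 ± 0.10 and Cyp2j5 fell by 0.68 ± 0.08 per 10 points. Smaller slopes were found for Cyp2a4 (−0.33 ± 0.09, adjusted p = 0.0126), Cyp2d9 (−0.62 ± 0.19, adjusted p = 0.0266) and Cyp2d26 (−0.26 ± 0.09, adjusted p = 0.0415, edgeR). The 4 members that rose were Cyp2j9 (0.65 ± 0.14), Cyp2a22 (0.64 ± 0.12), Cyp2b13 (0.59 ± 0.17) and Cyp2b9 (0.47 ± 0.10), with adjusted p from 0.00121 to 0.0244. The near copies Cyp2a12 and Cyp2a22 thus had slopes of opposite sign. Cyp2b10 had a slope of −0.21 ± 0.23 (adjusted p = 0.557).

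**Figure D4:**
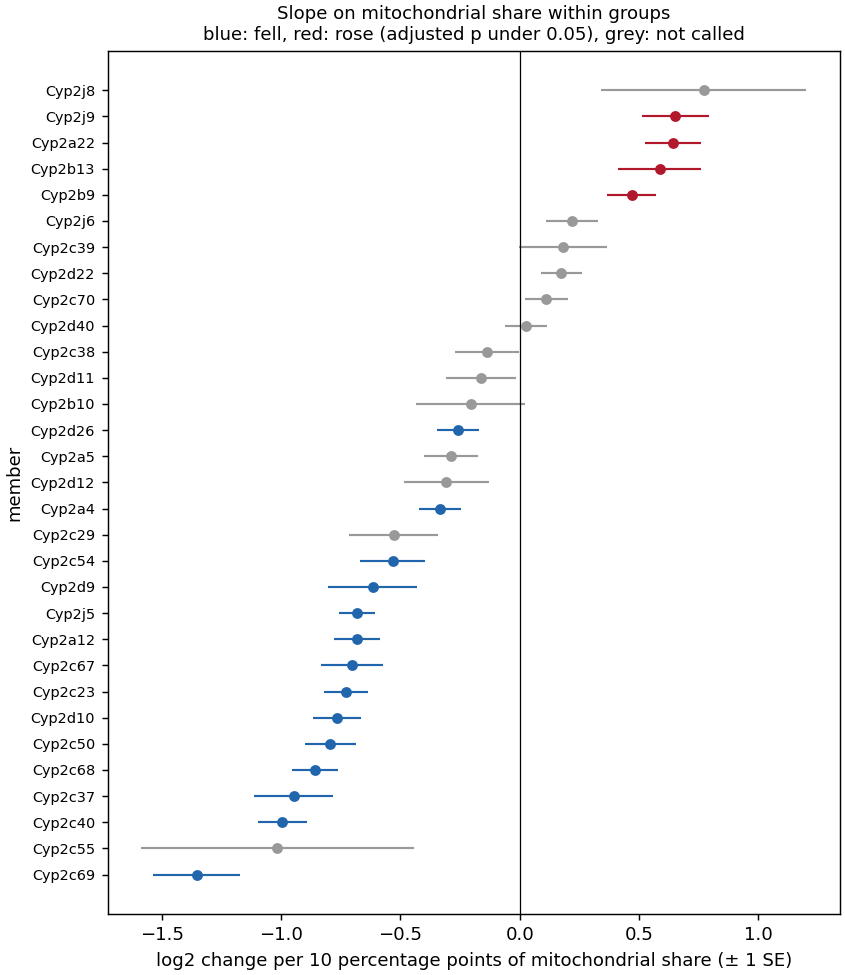
Slope of each tested member on the mitochondrial share within groups (log2 change per 10 percentage points, point, with 1 SE on each side), ordered by size; blue members fell and red members rose at an adjusted p under 0.05, grey ones were not called. The 14 blue points run from −1.35 (Cyp2c69) to −0.26 (Cyp2d26) and the 4 red points from 0.47 to 0.65.

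Of the 18 calls, 8 were lost under at least 1 of the 20 alternatives run. Without high replicate 2, the liver with the highest share, 1844 genes and 10 members were called, all 10 falling, and none of the 4 rising members was called (Cyp2a22 then had a slope of 0.45, adjusted p = 0.130). On library totals the 4 rising members were at 0.13 (Cyp2a22), 0.11 (Cyp2b13), 0.11 (Cyp2j9) and −0.03 (Cyp2b9), none called, while 25 members fell. On that scale 10411 of 16839 genes fell and the median slope of all genes was −0.53. On counts outside mitochondrial genes and copies, where 4787 genes rose and 1323 fell, Cyp2a4, Cyp2c54, Cyp2d9 and Cyp2d26 were no longer called. On that scale Cyp2c70, Cyp2d22 and Cyp2j6 were called as rising. The same 4 calls were lost with the replicate number as a block, which called Cyp2j6 as rising. Single livers other than high replicate 2 mattered for 4 members. Cyp2c54 and Cyp2b13 lost the call without low replicate 3. Cyp2d9 lost it without low replicate 1 or 3, medium replicate 1 or high replicate 1, and Cyp2d26 without control replicate 1, any low or medium replicate, or high replicate 1. Cyp2a12, Cyp2c23, Cyp2c37, Cyp2c40, Cyp2c50, Cyp2c67, Cyp2c68, Cyp2c69, Cyp2d10 and Cyp2j5 fell and were called under each of the 20 alternatives run. Of these alternatives 12 left out 1 library each. Library totals include the mitochondrial counts, so that setting could hardly lose a falling call. For Cyp2c40 the slope ran from −1.52 to −0.80 over them. All libraries enter both the share and the scaling, and what made the share differ between mice was not tested.

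**Figure D5:**
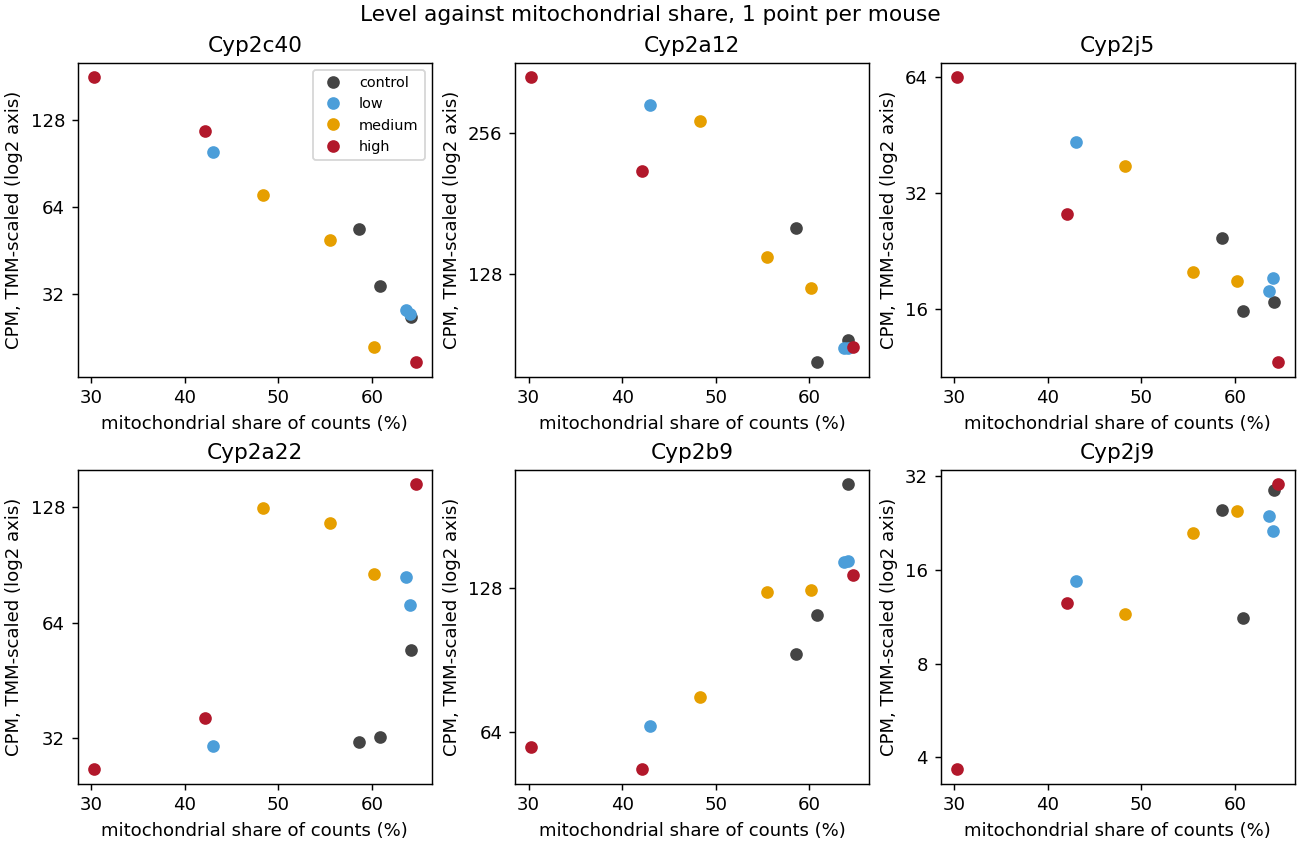
Level (CPM on TMM-scaled library sizes, log2 axis) against the mitochondrial share of counts (percent) for 6 members, with 1 point per mouse coloured by group. Cyp2c40, Cyp2a12 and Cyp2j5 are highest in high replicate 1, at a share of 30.3%, and low at shares above 60%; Cyp2b9 and Cyp2j9 run the other way, and Cyp2a22 is at 26.5 CPM at a share of 30.3% and at 147 CPM at 64.7%.

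Other genes of the pathway were read in the same fit, where 12.5% of all genes rose and 15.7% fell. Counts of the lists were not tested against these shares. Of 8 redox partner and haem supply genes 3 fell and 0 rose, among them Cyb5a (−0.94 ± 0.11 per 10 points) and its reductase Cyb5r3 (−0.84 ± 0.11), while Por had a slope of −0.23 ± 0.11 (adjusted p = 0.138, edgeR). Of 16 receptor and cofactor genes 4 rose and 1 fell, and the risers included the bile acid receptor Nr1h4 (0.43 ± 0.09) and Nr1i3 (0.32 ± 0.08). Hnf4a had a slope of 0.07 ± 0.08 (adjusted p = 0.538). Of 9 genes of the growth hormone axis 3 rose and 1 fell, with Cux2 at 0.70 ± 0.14 and Igf1 at −0.55 ± 0.09. Of 32 P450 genes of other families 9 fell and 5 rose, led by Cyp3a11 (−1.07 ± 0.11). Of 26 conjugation and transport genes 9 fell and 4 rose, led by Gstm1 (−1.27 ± 0.12). Of 6 tested arachidonate and epoxide genes 2 fell, the epoxide hydrolase Ephx1 at −0.67 ± 0.10 and the prostacyclin synthase Ptgis at −0.68 ± 0.13.

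Markers of cell types differed by list. Of 16 hepatocyte markers 12 fell with the share and 0 rose, with albumin (Alb) at −1.25 ± 0.12. Their summed level was 7985 to 15456 CPM in control, 7868 to 42936 in low, 9450 to 33006 in medium and 7141 to 61444 in high. Of 11 stellate cell and fibroblast markers 7 fell and 0 rose, with a summed level of 56.9 to 72.5 CPM in control, 38.7 to 95.3 in low, 41.3 to 85.4 in medium and 54.0 to 262 in high. Of 12 pericentral hepatocyte markers, which mark the zone richest in P450 enzymes, 7 fell and 1 rose, and of 12 periportal markers 4 fell and 0 rose. Among the other lists 1 of 11 Kupffer cell, 2 of 8 macrophage and monocyte, 2 of 8 endothelial and 1 of 9 T and NK cell markers fell. Of 9 B and plasma cell markers 1 rose, of 6 cholangiocyte markers and of 3 intestine markers 1 rose and 1 fell, and no tested neutrophil (7), erythroid (6) or kidney (4) marker was called. None of the hepatocyte, pericentral, periportal and stellate markers was at 0 in all libraries, and their part in the slopes of the members was not tested.

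In the dose comparisons none of these lists held a called gene. The largest estimates among redox partners at the high dose were those of the haem synthesis enzyme Alas1 (log2 change 1.54 ± 0.38, adjusted p = 0.320) and Cyb5a (1.57 ± 0.76, adjusted p = 0.406, edgeR). Por was measured at 113, 113 and 94.6 CPM in control, 74.4, 102 and 237 in low, 231, 229.9 and 186 in medium and 179, 174 and 169 in high. Its medium and high livers all exceeded the control livers, with a high log2 change of 0.70 ± 0.40 (adjusted p = 0.449, edgeR). Of all genes 14% in medium and 13% in high had groups that did not overlap control. Por was chosen for its role after its values were seen. The 6 members known to be induced through CAR (Cyp2b10, Cyp2c29, Cyp2c37, Cyp2c50, Cyp2c54 and Cyp2c55) had estimates above 0 at the high dose (median 1.01), as had 27 of 31 members and 52.2% of all genes, and none passed the threshold. With the mitochondrial share as a term 5 of them lay below 0 (Cyp2c29 at −0.90, Cyp2c37 at −0.75, Cyp2c50 at −0.49, Cyp2c54 at −0.76 and Cyp2c55 at −1.38), and Cyp2b10 was at 1.39. None of the 6 passed the threshold in that fit (adjusted p from 0.644 for Cyp2b10 to 0.901 for Cyp2c55, edgeR). Cyp2c55 was near the floor, with raw counts of 0 in control replicate 1 and high replicate 2 and 125 in high replicate 1.

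Promoter sequences were compared because the near copies Cyp2a12 and Cyp2a22 had slopes of opposite sign on the mitochondrial share. RefSeq promoters (GRCm38.p6, 250 bases before the gene start) were found for 34 of the 40 members. Those of Cyp2a12 (chr7:27028840-27029089, plus strand) and Cyp2a22 (chr7:26939387-26939636, minus strand) were 93.6% identical over 219 aligned bases, with 14 differences and 0 gaps. TATAAA, the TATA box, is in capitals.
Cyp2a12: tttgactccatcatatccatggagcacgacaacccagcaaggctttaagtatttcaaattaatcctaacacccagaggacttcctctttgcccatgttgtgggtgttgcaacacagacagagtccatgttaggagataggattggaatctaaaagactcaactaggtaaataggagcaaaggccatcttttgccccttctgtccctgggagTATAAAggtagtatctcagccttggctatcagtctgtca
Cyp2a22: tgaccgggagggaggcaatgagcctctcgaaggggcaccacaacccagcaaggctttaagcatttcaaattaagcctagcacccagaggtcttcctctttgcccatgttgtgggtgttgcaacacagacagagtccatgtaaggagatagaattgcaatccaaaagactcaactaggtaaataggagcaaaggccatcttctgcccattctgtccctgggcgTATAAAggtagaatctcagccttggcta
Those of Cyp2b9 (chr7:26173159-26173408, plus strand) and Cyp2b13 (chr7:26061245-26061494, plus strand), both of which rose with the share, differed at 2 of 250 bases, in capitals.
Cyp2b9: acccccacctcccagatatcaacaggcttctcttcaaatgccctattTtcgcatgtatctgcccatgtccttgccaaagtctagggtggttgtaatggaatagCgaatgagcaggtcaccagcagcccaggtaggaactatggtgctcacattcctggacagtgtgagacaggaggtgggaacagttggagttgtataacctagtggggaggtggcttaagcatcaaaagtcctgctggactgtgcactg
Cyp2b13: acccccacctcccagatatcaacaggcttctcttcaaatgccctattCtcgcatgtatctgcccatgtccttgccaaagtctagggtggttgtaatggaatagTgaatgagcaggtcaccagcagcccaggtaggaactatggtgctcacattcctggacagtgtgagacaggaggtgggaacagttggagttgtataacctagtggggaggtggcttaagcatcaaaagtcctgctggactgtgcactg

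The promoters were searched on both strands for 7 motifs. CAAAGTCCA, a form of the HNF4A site, was in 0.384% of 32851 promoters and in 6 of 34 member promoters, those of Cyp2c40, Cyp2c65, Cyp2c67, Cyp2c68, Cyp2c69 and Cyp2c70. Except for Cyp2c65, which had 0 counts, these are shown in stretches of 69 bases because Cyp2c40, Cyp2c67, Cyp2c68 and Cyp2c69 were among the members that fell with the share under each alternative. The motif is in capitals, and the 4 related genes share most of the bases around it, so they are not independent cases.
Cyp2c40: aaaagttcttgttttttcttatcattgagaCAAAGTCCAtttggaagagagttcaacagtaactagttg
Cyp2c67: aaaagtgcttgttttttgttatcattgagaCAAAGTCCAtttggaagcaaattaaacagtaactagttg
Cyp2c68: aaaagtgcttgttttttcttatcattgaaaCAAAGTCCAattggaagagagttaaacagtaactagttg
Cyp2c69: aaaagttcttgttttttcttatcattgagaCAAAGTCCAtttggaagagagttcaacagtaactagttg
Cyp2c70: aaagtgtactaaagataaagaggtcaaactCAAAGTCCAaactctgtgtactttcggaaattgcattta
They lie on the minus strand of chromosome 19, at chr19:39812821-39812889, chr19:39649129-39649197, chr19:39741140-39741208, chr19:39886806-39886874 and chr19:40187312-40187380. The shorter CAAAG, which the first motif contains, was in 31 member promoters and 48.6% of all. TTGCNNAA (C/EBP) was in 12 and 9.56%, TATAAA in 17 and 12.4%, AGGTCA (bound by many nuclear receptors) in 8 and 14%, TTCNNNGAA (STAT5) in 2 and 7.02%, and the HNF1 motif in 0 and 0.371%. Of the 12 falling members with a promoter 4 held CAAAGTCCA, and of the 4 rising members 0. Cyp2c70 also held it, but its slope on the share lay above 0 and was not called. The counts of falling and rising members were 12 and 4 for CAAAG, 4 and 3 for TTGCNNAA and 7 and 1 for TATAAA. They were 1 and 2 for AGGTCA, and 0 and 0 for the STAT5 and HNF1 motifs. None of these splits was tested. A match describes these letters only.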

How the data were processed

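Bulk RNA-seq of liver was analysed from 12 mice in 4 groups of 3, described by the labels as biological replicates. The authors deposited 1 table of raw counts per gene. The submitters' processing notes name mm39, STAR 2.7.10b, StringTie 2.2.1 and fastp 0.23.4. The counting step, its strand setting and its handling of reads that fit several genes are not given in the sources used here. Symbols matched 52073 of 56923 gene IDs, and 0.812% of counts lay on IDs without one.

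Counts were tested with edgeR 4.0.16 (R 4.3.3): filterByExpr, TMM, robust quasi-likelihood fits over all 12 libraries and Benjamini-Hochberg adjustment over 16839 genes. The slope on the mitochondrial share had the groups as terms. Alternatives were DESeq2 1.42.0 (its size factors and its Wald test), limma 3.58.1 (voom with library weights), no filter, library totals, removal of mitochondrial genes and their 11 nuclear copies, the share as a term, a replicate block and leaving out each library. The scale of counts outside mitochondrial genes and copies, and the comparison of all doses together, were added after the data were seen. The fits were also run on simulated counts with known changes in a small part of the genes. That setting is simpler than these data, and no result here rests on it.

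Exon lengths, coding sequences and promoters came from GENCODE M21 and RefSeq on GRCm38, another build than that of the files, so they serve only for lengths and sequences. Named members were the most abundant per subfamily, Cyp2a4, Cyp2a5, Cyp2b9, Cyp2b10, Cyp2b13, Cyp2c29, Cyp2c40 and Cyp2d9, and those past an adjusted p of 0.05 in a comparison or, with fewer than 5, the 3 per direction with the smallest p. From each list of other genes at most 3 were named per comparison, by p, together with Por, Hnf4a and Nr1i3, chosen for their role after their values were seen. Members and lists were chosen with earlier results of these data known.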

Additional observations from a re-analysis of the deposited data

How the results depend on the processing

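No alternative called a member in a dose comparison, though DESeq2 gave no p for Cyp2c29, and the cause of the shifts given here was not tested. DESeq2's Wald test called 42 genes in low, 89 in medium, 172 in high, 67 in the slope on dose and 165 with all doses together. With limma voom 35 genes were called in medium, 256 in high, 41 in the test for any difference and 32 with all doses together; the low median of members was 0.039, with Cyp2b9 at 0.086 and Cyp2c40 at −0.22 in low and Cyp2c29 at −1.03 in high. Without the filter 3 genes were called with all doses together. On library totals the median of all genes was −0.53 in the share slope (−0.02 in the reported fit), which then called 10470 genes with a members' median of −0.84 and Cyp2b9 at −0.031. On that scale the members' median was 0.84 in medium, 1.28 in high, 1.35 in the slope on dose and 1.01 with all doses together, where that of all genes was 0.47, 0.71, 0.75 and 0.42 (0.11 in low). This scale moves all genes alike, so signs that turned on it are not read as changes of single members. They turned for Cyp2c54 in low (0.28), for Cyp2c23 (0.018), Cyp2a5 (0.49) and Cyp2b9 (0.13) in medium, for Cyp2d40 in high (0.62), for Cyp2j6 in the slope on dose (0.44), and for Cyp2a4 (0.22) and Cyp2c29 (0.19) with all doses together. With the mitochondrial share as a term the members' median was 0.043 in low, 0.053 in medium, −0.19 in high, −0.27 in the slope on dose and −0.064 with all doses together. Signs turned in that fit for Cyp2c40 in low (−0.23), for Cyp2c40 (−0.44), Cyp2c54 (−0.33) and Cyp2j5 (−0.069) in medium, and in high for Cyp2j9 (0.12), Cyp2a4 (−0.37), Cyp2a5 (−0.43), Cyp2c29 (−0.90), Cyp2c40 (−0.54), Cyp2d9 (−0.19), Cyp2c54 (−0.76) and Cyp2j5 (−0.50). They turned in the slope on dose for Cyp2c40 (−0.53), Cyp2c69 (−0.72), Cyp2j9 (0.075) and Cyp2j6 (0.15). On counts outside mitochondrial genes and copies Cyp2c54 was at −0.042 in medium, and Cyp2a4 at −0.13, Cyp2a5 at −0.26, Cyp2c29 at −0.24 and Cyp2c54 at −0.18 in high; the median share slope of members was −0.12 and that of all genes 0.17. Between groups, deviations correlated from −0.257 to 0.445 for same-numbered replicates (median −0.039) and from −0.485 to 0.353 for others (median 0.0082). These ranges overlap and cannot show whether the numbers pair the mice, which the labels do not say. With a replicate block 3017 genes were called in the share slope, and Cyp2c29 was at −0.11 in high. For subfamily sums, the log2 change on the TMM scale was 0.18 in medium and −0.38 in high for Cyp2b, 0.65 in medium for Cyp2d and 0.17 in medium for Cyp2j. On counts outside mitochondrial genes and copies it was 0.074 and −0.68 for Cyp2b, 0.55 for Cyp2d in medium, and 0.063 and −0.056 for Cyp2j in medium and high. Leaving out each library gave 0 to 2 called genes in low, 0 to 1 in the test for any difference and with all doses together, and 1844 to 4771 genes with 10 to 19 members in the share slope. The members' median then ran from −0.10 to 0.56 in low and from 0.081 to 0.54 in medium. In low Cyp2b9 ran from −0.44 to 0.21, Cyp2c40 from −0.47 to 0.76, Cyp2c54 from −0.84 to 0.28, Cyp2d26 from −0.10 to 0.41 and Cyp2j5 from −0.042 to 0.72. In medium Cyp2a5 ran from −0.51 to 0.20, Cyp2b9 from −0.56 to 0.089, Cyp2c40 from −0.12 to 0.65 and Cyp2c54 from −0.28 to 0.48. In high Cyp2d40 ran from −0.28 to 0.30, Cyp2a5 from −0.12 to 0.23, Cyp2b13 from −0.11 to 0.95, Cyp2c29 from −1.23 to 0.69 and Cyp2c54 from −0.20 to 0.54, and in the slope on dose Cyp2j6 ran from −0.46 to 0.11. With 3 mice per group, counts differed between livers of 1 group by more than counting error. The smallest chi-square per degree of freedom over the 12 pairs of such livers was 38.5, with genes near 0 counts left out. The part of this spread, and of the depth, in the dose comparisons was not tested.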

Other observations

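Of the 21 pseudogenes left out of the members, Cyp2d37-ps had raw counts of 191, 124 and 155 in control, 47, 138 and 26 in low, 5, 236 and 245 in medium and 9, 22 and 25 in high. It was singled out after its values were seen and is given with no test. All high livers lay below all control livers in these counts, which are not scaled to depth, and reads that also fit other Cyp2d genes may be among them.

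Within a library, Cyp2a4 had 0.731, 0.946 and 1.14 times the counts of its near copy Cyp2a5 in the medium livers. In the other livers the ratio ran from 1.08 (control replicate 3) to 1.75 (high replicate 1), so the medium livers held the 2 lowest values of the 12.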
